A study of Mus musculus with 141 samples.

Results

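Fatty acid oxidation genes were followed across inbred mouse strains in subcutaneous fat. The group comprised 9 genes listed by name, found by symbol among the 36558 genes of the deposited tables, and all 9 had a measured level in every library. They were *Cpt1a*, *Cpt1b*, *Cpt2*, *Acadm*, *Acadl*, *Acadvl*, *Hadha*, *Hadhb* and *Acaa2*. They were listed as enzymes of the pathway and not by a threshold on their values, though earlier results of these data were known when the list was made. The libraries were bulk RNA-seq of subcutaneous (inguinal) white adipose tissue from 82 strains of the Hybrid Mouse Diversity Panel, a collection of inbred and recombinant inbred mouse strains used to map traits. Of these, 67 were labelled female and 74 male, and 59 strains had a library of each sex. Every group shared the same treatment: chow to 8 weeks of age, then 8 weeks on food rich in fat and sucrose (HF/HS), with tissue taken at 16 weeks after a 4-hour fast. There was no chow-fed control.

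The strains fell into 5 families. The BXD strains, recombinant inbred lines from C57BL/6J and DBA/2J, gave 32 female and 34 male libraries. One BXD strain, BXD24/TyJ-Cep290<rd16>/J, carries the rd16 mutation of *Cep290* and had a library of each sex. The AXB/BXA set, from A/J and C57BL/6J, gave 9 and 11, the BXH set 2 and 3, the CXB set 3 and 3, and the classical inbred strains 21 and 23. In the AXB/BXA set the sub-lines AXB19a/PgnJ and AXB19b/PgnJ were counted as strains of their own beside AXB19/PgnJ. Each strain had 1 library per sex, so variation between animals of a strain and sex could not be estimated. Apart from the test of strain itself, p-values below rest on the spread between strains. The test of strain rests on the variation left within strains after the mean sex difference is taken out. The sample titles open with a mouse number, and the labels do not otherwise say how many animals stand behind a library.

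Mitochondrial β-oxidation shortens fatty acids by repeated cycles that release acetyl-CoA and feed electrons to the respiratory chain. Long chains enter through the carnitine shuttle, in which a carnitine palmitoyltransferase of the outer membrane (CPT1) makes acylcarnitine and CPT2 of the inner membrane turns it back to acyl-CoA. Each cycle then needs an acyl-CoA dehydrogenase, a hydratase, a hydroxyacyl-CoA dehydrogenase and a thiolase. White fat mostly stores fatty acids and oxidises them at a low rate, whereas brown and beige adipocytes burn them to make heat and use the muscle type of CPT1, *Cpt1b*, beside the liver type, *Cpt1a*.

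Library totals ran from 6269154 to 78562648 estimated counts, with a median of 30233245. Adipocyte markers were present in all libraries, with a summed level of 5525 to 64356 TPM, a level scaled for transcript length and library total. The libraries of AXB12/PgnJ female (6648.1 TPM) and BXD34/TyJ female (5525.4 TPM) were lowest in these markers, and BXD79/RwwJ female, BXH8/TyJ male and BXA7/PgnJ male were highest in skeletal muscle markers. Y-linked counts went against the label in 3 libraries: NZW/LacJ male, BXD34/TyJ female and BXD69/RwwJ female. Mitochondrially encoded genes took 9.58% to 55.6% of all TPM, so TPM was used below to compare genes with each other, and CPM, counts scaled to the library total and adjusted by the trimmed mean of M values (TMM) to compare libraries.

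*Acadm*, medium-chain acyl-CoA dehydrogenase, had the highest median level of the 9 genes, at 500.6 TPM over all libraries. *Hadhb* followed at a median of 313.9 TPM, *Acadl* at 301 TPM, *Hadha* at 200.6 TPM and *Acaa2* at 152.8 TPM. *Acadvl* had a median of 117.2 TPM, *Cpt2* 69.5 TPM, *Cpt1a* 40.2 TPM and *Cpt1b* 8.52 TPM. The enzymes of the cycle itself thus stood above the 3 carnitine palmitoyltransferases, and the muscle type of CPT1 stood last. In this order 2 pairs of neighbours, *Hadhb* over *Acadl* and *Acaa2* over *Acadvl*, differed by less than 1 SD over all libraries. The difference of log2 TPM was 0.14 ± 0.37 (SD) for the first pair and 0.30 ± 0.32 for the second. In females alone *Acadm* over *Hadhb* (0.37 ± 0.52) and *Acadl* over *Hadha* (0.38 ± 0.38) were within 1 SD as well.

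**Figure D1:**
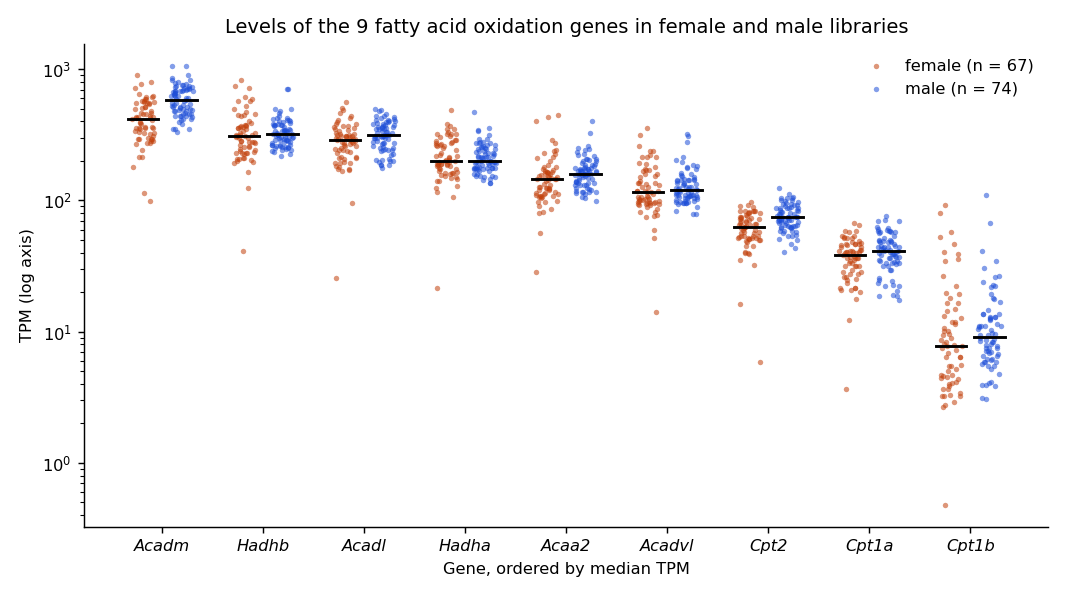
Level of each gene in TPM (log axis) by library, with genes in order of their median; orange points are the 67 female and blue points the 74 male libraries, and black bars mark medians. *Acadm* had the highest median and *Cpt1b* the lowest and the widest range, from 0.478 to 110.4 TPM; the lowest point of each gene is the female library of BXD34/TyJ.

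The genes differed in how far their level moved between libraries. Within each sex the SD of log2 CPM was 1.28 for *Cpt1b*, larger than for 91.2% of the 16862 genes kept by the filter on low counts. For *Cpt1a* it was 0.36, larger than for 37.4% of them, and for the other 7 genes it lay between 0.52 and 0.69. The median gene had an SD of 0.46. The 2 forms of CPT1, which catalyse the same step, were therefore at opposite ends of the 9 genes in spread.

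The genes lie on 8 chromosomes of the GRCm38 build (GENCODE M21 gene models). *Cpt1a* is at chr19:3322334-3385733 on the forward strand, *Cpt1b* at chr15:89416405-89425863 and *Cpt2* at chr4:107903981-107923610, both on the reverse strand. The acyl-CoA dehydrogenases are all on the reverse strand, *Acadm* at chr3:153922357-153944632, *Acadl* at chr1:66830839-66863277 and *Acadvl* at chr11:70010183-70015411, and *Acaa2* is on the forward strand. *Hadha* and *Hadhb*, which encode the α and β subunits of the mitochondrial trifunctional protein, are neighbours on chromosome 5. *Hadha* (30118304-30155162) is on the reverse strand and *Hadhb* (30155248-30184593) on the forward strand, so that both start from the same 85 bases. This gap is shown because both subunits start from it and varied together closely (r = 0.97 in females and 0.94 in males on log2 CPM). *Acadvl*, on another chromosome, varied with *Hadhb* nearly as closely (r = 0.96 and 0.94), and the part of the shared gap was not tested. Capitals mark the GC box, GGGCGG, a binding sequence of Sp1-type factors, which occurs there 2 times. The sequence is read on the forward strand from the RefSeq genome.
*Hadha*-*Hadhb* gap, chr5:30155163-30155247, forward strand: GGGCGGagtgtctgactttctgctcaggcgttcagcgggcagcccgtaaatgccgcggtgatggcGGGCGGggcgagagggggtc

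The RefSeq table of promoters (GRCm38.p6, 250 bases before to 50 after each gene's start) held 7 of the 9 genes, without *Cpt1b* and *Acaa2*. The nuclear receptor half-site AGGTCA, read on both strands, occurred in 3 of the 7 (*Cpt1a*, *Acadm* and *Acadvl*), against 16.3% of all 32851 promoters. The GC box GGGCGG occurred in 5 of the 7 (*Cpt1a*, *Cpt2*, *Acadl*, *Hadha* and *Hadhb*), against 35.7%. *Hadha* and *Hadhb* start from the same 85 bases, which hold the box, so their promoters are not independent in this count. The longer element TCAAGGTCA, which contains the half-site and is bound by estrogen-related receptors, occurred in 0 of 7, against 0.423%. A direct repeat of the half-site spaced by 1 base, AGGTCANAGGTCA with up to 2 mismatches, which is the form bound by PPAR and RXR and also overlaps the half-site, occurred in 0 of 7, against 3.86%. *Cpt1a* and *Acadvl* are printed because both hold the half-site (in capitals) and, among the 7 genes with a promoter in the table, stood farthest apart in their relation to brown and beige adipocyte markers, described below. Its distance before the RefSeq start was 94 bases in *Cpt1a*, on the reverse strand, and 87 bases in *Acadvl*; the RefSeq start of *Cpt1a* lies inside the longer gene model of GENCODE.
*Cpt1a*, chr19:3323177-3323242, forward strand: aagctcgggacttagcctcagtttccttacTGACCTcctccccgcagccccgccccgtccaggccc
*Acadvl*, chr11:70015480-70015545, reverse strand: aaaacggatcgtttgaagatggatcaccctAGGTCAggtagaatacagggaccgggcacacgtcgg

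To assess sex differences, the female and the male library of each of the 59 strains were compared with strain as a block. Of the 9 genes, 6 were lower in females and 0 were higher (edgeR quasi-likelihood test, Benjamini-Hochberg adjusted p under 0.05). In the same fit 29.8% of the 16765 genes tested were lower and 28.4% were higher, 58.1% in all. The median log2 fold change (log2FC, female over male) of the 9 genes was -0.27, and that of all genes tested was 0.01. With library totals in place of TMM the median of all genes moved to 0.12 and the split of all calls from 4759 higher and 4988 lower to 7364 higher and 2794 lower, and 4 of the 9 genes (*Cpt2*, *Acadm*, *Acadl* and *Acaa2*) were called lower. Leaving out the strains of the libraries that stood apart in marker genes, 5 of 9 were lower.

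Among the carnitine palmitoyltransferases all 3 were lower in females, by unequal amounts. *Cpt2* ran from 21.2 to 289.2 CPM in the female libraries (median 79.5) and from 59.9 to 255.4 CPM in the male libraries (median 112.2). The ranges overlapped, but the female library was the lower one in 47 of 59 strains. The fitted log2FC of *Cpt2* was -0.39 ± 0.0911 (SE), with an adjusted p = 1.89e-04 by the edgeR quasi-likelihood test. *Cpt1a*, the liver type of CPT1, ran from 72.1 to 163.5 CPM in females (median 109.5) and from 72.9 to 211.9 CPM in males (median 119.3). It was lower in the female library of 39 of 59 strains, a small shift of log2FC -0.18 ± 0.0516 (SE; adjusted p = 0.00275, edgeR). With library totals the log2FC of *Cpt1a* was -0.07 (adjusted p = 0.301, edgeR) and it did not pass the test. It was called lower under 10 of the 14 alternatives run, and not with limma on log2(TPM + 1) or log2(TPM + 0.1).

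*Cpt1b* showed the widest values and the least stable call. It ran from 4.71 to 402.8 CPM in females (median 15.2) and from 5.51 to 324.5 CPM in males (median 22.3). The female library was lower in 38 of 59 strains, with log2FC -0.41 ± 0.172 (SE; adjusted p = 0.0377, edgeR quasi-likelihood test). The mean over strains went the other way, 35.7 CPM in females and 34.3 CPM in males, since a few female libraries were very high. Strain differences ran from -3.04 in NZW/LacJ, whose male-labelled library had Y-linked counts at the female level, to 3.30 in MA/MyJ. Without NZW/LacJ the adjusted p of *Cpt1b* was 0.0551 (edgeR), and without the strain block its log2FC was 0.07 (adjusted p = 0.851, edgeR). *Cpt1b* was called lower under 6 of the 14 alternatives run.

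Of the acyl-CoA dehydrogenases, which take the first step of each cycle on chains of different length, *Acadm* differed most between the sexes. Its female libraries ran from 83.3 to 1169 CPM (median 376.3) and its male libraries from 309 to 1192 CPM (median 559.1). The female library was lower in 49 of 59 strains, and the log2FC was -0.59 ± 0.0855 (SE; adjusted p = 3.05e-08, edgeR quasi-likelihood test), a 1.51-fold lower level. *Acadm* was called lower under all 14 alternatives run. *Acadl*, the long-chain enzyme, ran from 84.9 to 1314 CPM in females (median 286.1) and from 195.7 to 1092 CPM in males (median 345.3). It was lower in the female library of 46 of 59 strains (log2FC -0.27 ± 0.0836 SE; adjusted p = 0.00442, edgeR). *Acadvl*, the very-long-chain enzyme, had medians of 152.8 CPM in females and 188.7 CPM in males and was lower in 44 of 59 strains, but its log2FC of -0.18 ± 0.107 (SE) did not pass the test (adjusted p = 0.140, edgeR).

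The trifunctional protein and the thiolase complete the cycle. *Acaa2*, the mitochondrial 3-ketoacyl-CoA thiolase, ran from 45.4 to 835.9 CPM in females (median 126.4) and from 85.1 to 514.9 CPM in males (median 156.8). It was lower in the female library of 47 of 59 strains (log2FC -0.31 ± 0.0896 SE; adjusted p = 0.00261, edgeR quasi-likelihood test). The subunits of the trifunctional protein did not pass the test. *Hadhb* had a log2FC of -0.15 ± 0.0951 (SE; adjusted p = 0.187, edgeR) and was lower in 43 of 59 strains. *Hadha* had a log2FC of -0.09 ± 0.0864 (SE; adjusted p = 0.359, edgeR), which became 0.02 with library totals, and was lower in 39 of 59 strains.

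**Figure D2:**
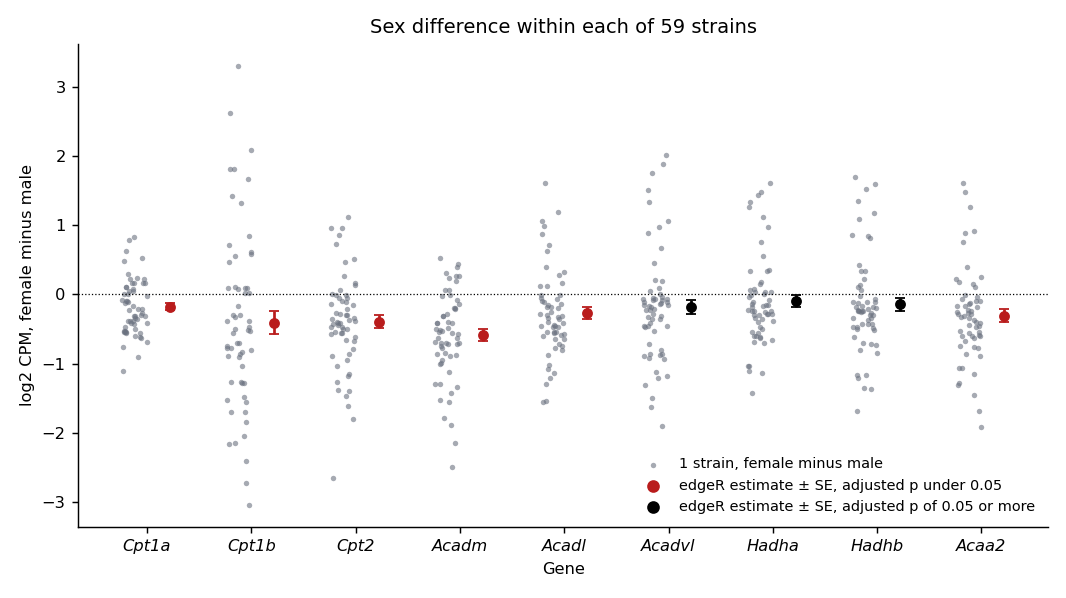
Female minus male log2 CPM for each of the 9 genes: grey points are the 59 strains, and the larger points with bars are edgeR estimates ± SE, red where the adjusted p was under 0.05. Estimates ran from -0.59 for *Acadm* to -0.09 for *Hadha* (0.02 with library totals), and *Cpt1b* had the widest scatter, from -3.04 to 3.30.

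The genes tended to move as a block within a strain. In 30 of the 59 strains all 8 genes other than *Cpt1a* were lower in the female library, and in 6 strains all 8 were higher. These 6 were BXD14/TyJ, BXD40/TyJ, BXD50/RwwJ, BXD75/RwwJ, C57BLKS/J and MA/MyJ. *Cpt1a* was lower in the female library in 5 of the 6, and likewise in 20 of the 30 strains and in 14 of the remaining 23. In MA/MyJ the log2 difference was 3.30 for *Cpt1b* and -1.10 for *Cpt1a*. In all 6 the summed brown and beige adipocyte markers were higher in the female library, for example 2761 TPM against 276.9 TPM in MA/MyJ and 2895 TPM against 671.6 TPM in BXD14/TyJ. In the 30 strains with all 8 genes lower, these markers were lower in the female library in 24, and in the other 23 strains they were higher in 17. On the TPM scale, the summed adipocyte markers were lower in the female library in 26 of the 30 strains, in 5 of the 6 and in 17 of the 23. TPM has a fixed total, so mitochondrially encoded genes at a high share lower the TPM of all others. That share was highest in the BXD14/TyJ female (55.6%), and its part in these counts was not tested. The grouping of the 8 genes was made after their values were seen.

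In bulk tissue, fewer cells of a type and less RNA per cell cannot be told apart. Markers of other cells moved with sex in the same libraries. All 6 adipocyte markers were lower in females (summed median 31900 TPM, range 5525 to 62339, against 42292 TPM, range 12364 to 64356, in males), and 4 of 5 macrophage markers were lower (188.4 TPM, range 54.1 to 831.9, against 244.3 TPM, range 58.3 to 737). All 7 markers of mammary epithelium were higher in females (387.7 TPM, range 0.806 to 1307, against 2.03 TPM, range 0.168 to 406.6). Of the brown and beige markers 1 of 7 was lower (*Otop1*; sums of 34.9 to 2895 TPM in females and 71.4 to 2378 TPM in males), of the skeletal muscle markers 1 of 7 tested (*Pvalb*; 3.52 to 17162 TPM and 5.31 to 3265 TPM), and of the lymph node B cell markers 0 of 6 by edgeR (1.87 to 1006 TPM and 1.53 to 1007 TPM). A further term, the log2 of the summed adipocyte marker TPM, was added after seeing the data. In that fit 3 of the 9 genes were lower in females, beside 21.3% of all genes lower and 21.6% higher. They were *Acadm* (log2FC -0.34, adjusted p = 0.00133, edgeR), *Cpt1b* (-0.64, adjusted p = 0.00929) and *Acaa2* (-0.27, adjusted p = 0.0404). The other 3 genes that had been called lower did not pass: *Acadl* had a log2FC of -0.23 (adjusted p = 0.0629, edgeR), *Cpt2* -0.22 (adjusted p = 0.0792) and *Cpt1a* -0.12 (adjusted p = 0.108). The part of the macrophage and mammary markers in the result was not tested.

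Around the 9 genes, 56 further genes of fatty acid handling were listed and 55 tested. Of these, 32 were lower in females, 6 were higher and 17 did not pass the test, with a median log2FC of -0.21. Over all genes in that fit 29.8% were lower and 28.4% higher. With the adipocyte marker term 11 of the 55 were lower, a share near the 21.3% of all genes in that fit. The counts by group are from the fit without that term, beside the 29.8% of all genes that were lower there. Of the 8 hydratases, isomerases and short-chain enzymes 7 were lower. All 3 genes of the electron transfer flavoprotein system, which carries electrons away from the acyl-CoA dehydrogenases, were lower. In peroxisomal oxidation 7 of 10 were lower, and of the other acyl-CoA dehydrogenases 3 of 7, nearer to the share of all genes. *Acads*, the short-chain enzyme, had a log2FC of -0.35 ± 0.0803 (SE; adjusted p = 1.76e-04, edgeR), and *Slc25a20*, the carnitine-acylcarnitine carrier, -0.20 ± 0.0788 (adjusted p = 0.0282).

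The genes that were higher in females lay outside the mitochondrial cycle. *Acot1*, a cytosolic acyl-CoA thioesterase, had the largest rise, with a median of 18.1 CPM in females and 1.26 CPM in males (log2FC 3.79 ± 0.236 SE; adjusted p = 1.31e-21, edgeR). It has a near-identical neighbour, *Acot2* (log2FC 0.01), so the split of reads between them is uncertain. *Acaca*, acetyl-CoA carboxylase, whose product malonyl-CoA inhibits CPT1, rose by a log2FC of 0.74 ± 0.178 (SE; adjusted p = 3.50e-04, edgeR). *Cpt1c*, the brain type of CPT1, and *Acsl3*, an acyl-CoA synthetase, had log2FC of 0.52 and 0.36 (adjusted p = 5.50e-14 and 2.03e-07, edgeR). The largest falls were those of *Fgf21* (-0.83; a hormone gene with a median of 0.316 CPM in females), *Plin5* (-0.79; a lipid droplet protein of oxidative cells), *Angptl4* (-0.64; a lipoprotein lipase inhibitor) and *Abcd2* (-0.62; a peroxisomal acyl-CoA transporter), all with adjusted p of at most 5.21e-05 by edgeR.

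Among transcriptional regulators of these genes, 5 of 8 were lower in females and 1 was higher, beside 29.8% of all genes lower and 28.4% higher. These values are from the fit without the adipocyte marker term. *Ppara*, the receptor that drives oxidation genes in liver and brown fat, had a log2FC of -0.37 ± 0.148 (SE; adjusted p = 0.0290, edgeR), and *Pparg*, the adipocyte receptor, -0.38 ± 0.0891 (adjusted p = 2.46e-04). *Rxra*, their common partner, had -0.33 (adjusted p = 5.49e-07, edgeR) and *Ppard* -0.09 (adjusted p = 0.00287). The coactivators split: *Ppargc1a* was lower (-0.31, adjusted p = 0.00221, edgeR) and *Ppargc1b* higher (0.30, adjusted p = 0.00655). *Esrra* (-0.03, adjusted p = 0.609, edgeR) and *Esrrg* (0.13, adjusted p = 0.183), both estrogen-related receptors, did not pass the test.

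To assess the influence of strain, the same fit was tested for all strain terms at once. Of the 9 genes 8 differed between strains, beside 71.2% of all genes tested. The smallest adjusted p-values were those of *Cpt1b* (3.70e-08) and *Acaa2* (1.40e-05), and *Cpt2* did not pass the test (0.0536; all by the edgeR quasi-likelihood test). *Cpt2* passed in 5 of the 11 alternatives run, and *Cpt1a* (adjusted p = 0.0244) did not pass with library totals (adjusted p = 0.0586, edgeR).

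The strains at the ends of the range differed between the 2 forms of CPT1. Strains were ranked by the geometric mean of their female and male CPM. For *Cpt1b* it was highest in BXD14/TyJ, with 402.8 CPM in the female and 65.5 CPM in the male library. SJL/J followed with 73.2 CPM in the female and 324.5 CPM in the male, and SWR/J with 35.5 and 188.4 CPM. The sex with the higher level thus differed between these strains. At the low end both sexes were low: BXD48/RwwJ had 4.71 and 6.95 CPM, CE/J 5.96 and 5.51 CPM, and BXD45/RwwJ 5.08 and 8.29 CPM. CE/J, among the lowest for *Cpt1b*, was highest for *Cpt1a*, with 145.7 CPM in the female and 211.9 CPM in the male. *Cpt1a* was lowest in BXD40/TyJ (83.4 and 74.1 CPM) and BXD12/TyJ (78.9 and 78.4 CPM).

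BXD14/TyJ had the highest geometric mean of *Cpt2*, *Acadm*, *Acadl*, *Acadvl*, *Hadha*, *Hadhb* and *Acaa2* as well. Its female library held 1985 CPM of *Hadhb* and 1451 CPM of *Hadha*, against 659.7 and 475.7 CPM in its male library. AXB12/PgnJ was lowest for *Acadm* and *Acadl*, through its female library: *Acadm* was 83.3 CPM there and 471.6 CPM in the male. For *Cpt2* its geometric mean of 53.2 CPM was next to that of BXD66/RwwJ (53.3 CPM), and for *Hadhb* its 230.5 CPM was next to that of AXB19a/PgnJ (231.4 CPM). That female library was 1 of the 2 lowest in adipocyte markers, and the part of those markers in its values was not tested. BXD74/RwwJ had the lowest geometric mean of *Acaa2* (68.9 CPM in the female and 85.5 CPM in the male) and of *Acadvl* (96.9 CPM over both).

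Across the 59 strains the female level followed the male level to a different degree in each gene. On log2 CPM *Cpt1b* had the closest relation (Pearson r = 0.53, p = 2.00e-05; Spearman rho = 0.56, p = 2.00e-05; two-sided permutation tests), and r was 0.54 without the 2 strains farthest from the median. *Acaa2* had r = 0.45 (permutation p = 4.50e-04; rho = 0.52, p = 6.00e-05; r = 0.43 without 2 strains), *Acadl* 0.41, *Hadhb* 0.40 and *Hadha* 0.37. *Acadvl* had r = 0.32 (permutation p = 0.0146; rho = 0.38, p = 0.00323; 0.33 without 2 strains). For *Acadm* r was 0.30 (permutation p = 0.0204; rho = 0.28, p = 0.0302), and it was 0.25 (permutation p = 0.0613) without AXB12/PgnJ and BXD14/TyJ. *Cpt1a* had r = 0.28 (permutation p = 0.0348; rho = 0.24, p = 0.0615) and *Cpt2* r = 0.17 (permutation p = 0.211; rho = 0.14, p = 0.296). On log2(TPM + 1) *Hadha* had the highest r (0.60), followed by *Cpt1b* (0.58), and r was 0.55 for *Hadhb*, 0.54 for *Acaa2* and *Acadl*, 0.42 for *Acadm* and 0.11 for *Cpt2*. These 9 relations were tested as 1 family with raw p-values.

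**Figure D3:**
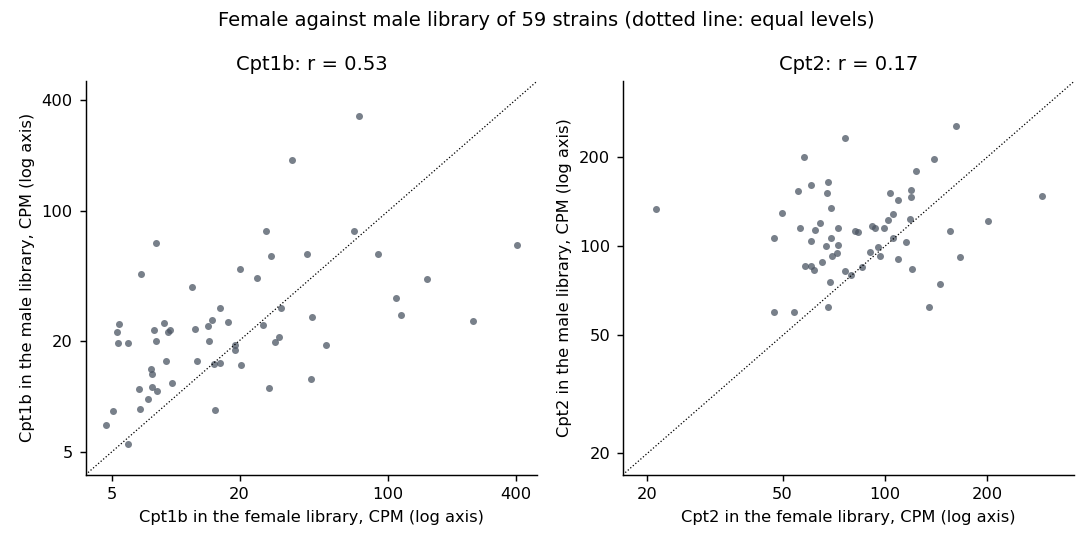
CPM in the male against the female library of the same strain (log axes) for *Cpt1b* and *Cpt2*; each point is 1 of 59 strains and the dotted line marks equal levels. *Cpt1b* followed strain more closely (r = 0.53) than *Cpt2* (r = 0.17), and the 2 correlations were not tested against each other.

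The BXD parents differed in *Cpt1b* in both sexes. C57BL/6J had 7.78 CPM in the female and 11.2 CPM in the male library, and DBA/2J had 69.2 and 77.9 CPM. Each parent had 1 library per sex, so this difference has no replicate check. Of the BXD libraries, 19 of 32 female and 27 of 34 male libraries lay between the parents, and 5 female and 0 male libraries lay above both. For *Acaa2* the parents had 92.9 and 221.3 CPM in females, with 18 of 32 BXD libraries between them. *Cpt1a* ran the other way in males, with 185.1 CPM in C57BL/6J and 134.1 CPM in DBA/2J, and 21 of 34 BXD males lay below both. In females the parents were closer, at 109.8 and 100.6 CPM, with 13 of 32 BXD libraries above both and 15 below both.

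Differences between the 5 families were tested in each sex, with each strain entering 1 time. In females 0 of 9 genes differed by the edgeR quasi-likelihood test, beside 4.39% of 15476 genes tested; the smallest unadjusted p of the 9 was 0.128, and DESeq2 and limma-voom also called 0. Over all genes 2713 had an unadjusted p under 0.05 in that fit. In males 4 of 9 differed, beside 9.17% of 14976 genes: *Acadl* (adjusted p = 0.0112), *Hadha* (0.0136), *Acaa2* (0.0195) and *Cpt1b* (0.0299; all edgeR). *Acadl* ran from 489.8 to 1092 CPM in the 3 CXB males and from 181.9 to 307.9 CPM in the 3 BXH males. It ran from 195.7 to 696.2 CPM in the 23 classical males. In the 34 BXD males it ran from 219.5 to 788 CPM, and in the 11 AXB/BXA males from 190.5 to 502.7 CPM. Without CXB11/HiAJ the adjusted p of *Acadl* was 0.197 and of *Acaa2* 0.0767, without BXH9/TyJ that of *Cpt1b* was 0.0567 (edgeR), and with limma-voom *Cpt1b* and *Acaa2* did not pass (0.383 and 0.0548). In the same male fit 4 of 6 brown and beige markers, 2 of 5 skeletal muscle markers, 0 of 6 adipocyte, 0 of 6 B cell and 0 of 5 macrophage markers tested had a family difference by edgeR.

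Between the 2 largest families, 3 of 9 genes were lower in BXD than in classical males, beside 3.45% of all genes lower, 2.6% higher and 6.06% called in either direction. *Cpt1b* ran from 6.95 to 65.5 CPM in 34 BXD males (median 18.9) and from 5.51 to 324.5 CPM in 23 classical males (median 23.8), so that the classical range enclosed the BXD range. Its log2FC was -1.06 ± 0.297 (SE; adjusted p = 0.0197, edgeR quasi-likelihood test). *Acaa2* (-0.44 ± 0.130, adjusted p = 0.0303) and *Hadha* (-0.36 ± 0.111, adjusted p = 0.0356, edgeR) were lower too, and limma-voom called 0 of 9. In the same males 3 of 6 brown and beige markers tested were lower, *Ucp1* with a log2FC of -2.62, *Cox7a1* with -1.34 and *Cidea* with -1.04, and their part in the result was not tested. In females 0 of 9 differed by edgeR, beside 8.11% of genes (788 or 5.09% higher and 467 or 3.02% lower, which became 436 and 590 with library totals), and limma-voom also called 0. Whether the sex difference itself differed between BXD and classical strains was tested as an interaction: 0 of 9 genes passed, beside 0% of 16754 genes, by edgeR and by limma-voom, with 541 genes at an unadjusted p under 0.05 by edgeR and the 9 genes at 0.187 or above.

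The genes were also compared with each other within each sex. On log2 CPM the 36 pairs had a median r of 0.85 in females and 0.72 in males, and on log2 TPM of 0.77 and 0.45. *Hadha* and *Hadhb*, which share the start region printed above, had the highest r of all pairs in both sexes on log2 CPM, 0.97 and 0.94. *Acadvl* with *Hadhb* had 0.96 and 0.94 on that scale. On log2 TPM *Hadha* and *Hadhb* had 0.93 and 0.85, and *Acadvl* with *Hadhb* 0.95 and 0.85. *Cpt1b*, *Acadvl*, *Hadha*, *Hadhb* and *Acaa2* formed the closest set, chosen after seeing the values, with r between 0.88 and 0.97 in females and between 0.78 and 0.94 in males on log2 CPM, and from 0.79 and 0.59 upwards on log2 TPM. *Acadm* and *Cpt2* were close to each other (0.87 and 0.82; 0.85 and 0.70 on log2 TPM), and *Acadm* had a lower r with *Cpt1b* (0.63 and 0.48; 0.45 and 0.30 on log2 TPM).

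*Cpt1a* stood outside this pattern. Its r with the other 8 genes ran from -0.27 to -0.10 in females and from -0.38 to -0.03 in males on the log2 CPM scale. These values depended on the scaling: on log2 TPM, r of *Cpt1a* with *Cpt2* was 0.31 in females and with *Acadvl* 0.01, against -0.10 and -0.19 on log2 CPM. Within classical strains the relation was more negative, for example r = -0.63 with *Acadvl* in females and -0.74 in males, and within BXD strains it was -0.12 and -0.28. No test of the difference between families was made.

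**Figure D4:**
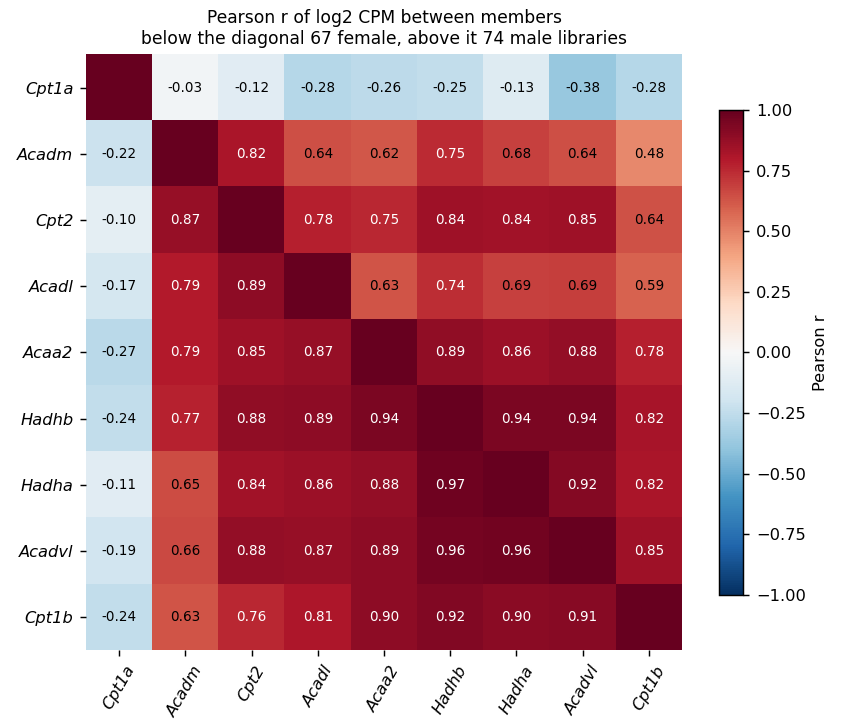
Pearson r of log2 CPM between the 9 genes, with the 67 female libraries below the diagonal and the 74 male libraries above it; colour runs from blue (-1) to red (1). All pairs without *Cpt1a* were positive on this scale, from 0.48 to 0.97 (from 0.23 to 0.95 on log2 TPM), and all pairs with *Cpt1a* were between -0.38 and -0.03 (some were above 0 on log2 TPM).

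Markers of brown and beige adipocytes followed most of the genes. The summed marker level had r = 0.93 with *Cpt1b* in females and 0.92 in males, 0.93 and 0.90 with *Acadvl*, and 0.88 and 0.81 with *Hadha*. Each had a permutation p of 1e-05, the smallest that 100000 resamples can give, and an adjusted p of 2.14e-05 in females and 2.50e-05 in males over 90 relations per sex. For *Cpt1b* rho was 0.90 and 0.87 (permutation p = 1.00e-05 each), r was 0.91 and 0.89 without 2 libraries, 0.95 and 0.92 within BXD strains and 0.93 in both sexes within classical strains. The relation was lowest for *Acadm*, among the 8 genes other than *Cpt1a*, at 0.56 in females and 0.48 in males. With the genes on log2 TPM, r was 0.92 and 0.88 for *Cpt1b*, 0.87 and 0.90 for *Acadvl*, 0.72 and 0.63 for *Hadha* and 0.35 and 0.21 for *Acadm*. *Cpt1a* had r = -0.25 in females (permutation p = 0.0380; adjusted p = 0.0534) and -0.40 in males (permutation p = 5.60e-04; adjusted p = 0.00115).

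Other cell markers ordered the genes differently. Macrophage markers had r = 0.64 with *Cpt1a* in females and 0.67 in males (permutation p = 1.00e-05 each; rho 0.59 and 0.65), and -0.53 and -0.31 with *Cpt1b* (-0.37 and -0.20 on log2 TPM). Adipocyte markers were closest to *Acadm*, at 0.50 in females and 0.48 in males (adjusted permutation p = 6.00e-05 and 9.23e-05). With *Cpt1b* their r was -0.07 in females and -0.28 in males. The male value was -0.08 without 2 libraries, with rho = -0.06, and it was 0.22 within BXD and -0.51 within classical strains. Skeletal muscle also uses *Cpt1b*, and the muscle markers had r = -0.32 with *Cpt1b* in females and -0.30 in males. In BXD79/RwwJ, whose female library was highest in muscle markers, the female minus male log2 difference of *Cpt1b* was 1.80. It was -2.165 in BXH8/TyJ and -0.77 in BXA7/PgnJ, whose male libraries were high in these markers. B cell markers were lower where *Acadm* was high (r = -0.64 and -0.53). Mammary markers had r between -0.26 (*Acadm*) and 0.25 (*Cpt1a*) with the 9 genes in females. For these 2 genes rho was -0.46 and 0.46, and r without 2 libraries was -0.32 and 0.48. Within classical females r was -0.70 for *Acadm* and 0.63 for *Cpt1a*, and within BXD females -0.23 and 0.11. The part of any cell type in these relations was not tested.

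**Figure D5:**
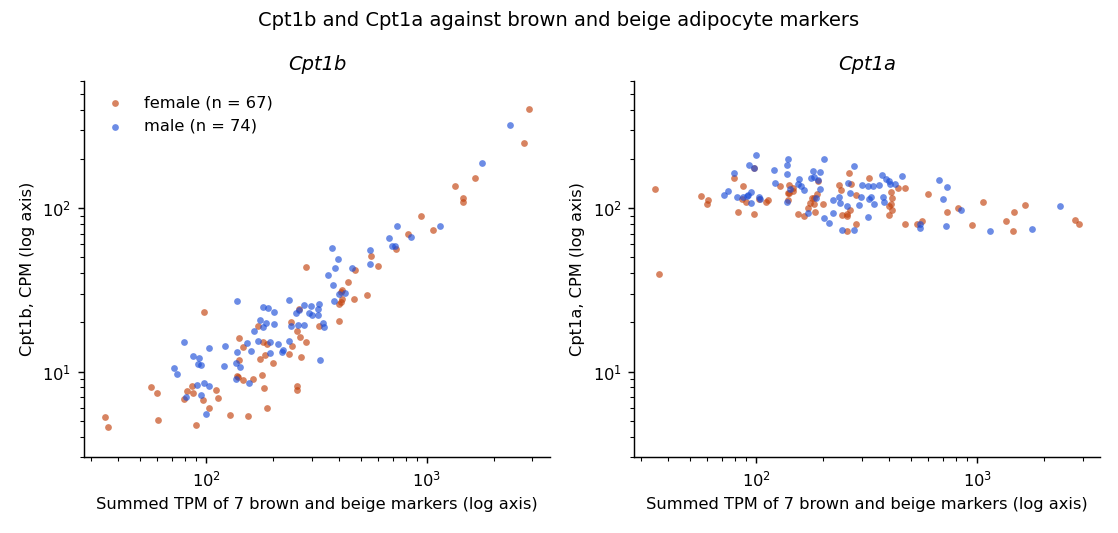
CPM of *Cpt1b* (left) and *Cpt1a* (right) against the summed TPM of 7 brown and beige adipocyte markers, on log axes, in 67 female (orange) and 74 male (blue) libraries. *Cpt1b* rose with the markers (r = 0.93 and 0.92 on log scales), while *Cpt1a* ran from 39.9 to 211.9 CPM and had r = -0.25 and -0.40.

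The relative use of the 2 forms of CPT1 changed accordingly. The ratio of *Cpt1b* to *Cpt1a* in TPM ran from 0.0431 in the male library of CE/J to 7.42 in the female library of BXD14/TyJ, with a median of 0.213. It was above 1 in 14 libraries, 8 of them female and 6 male. In the BXD14/TyJ female *Cpt1b* was 91.7 TPM, *Cpt1a* 12.4 TPM and *Ucp1*, the uncoupling protein of brown and beige adipocytes, 1276 TPM. In the SJL/J male *Cpt1b* was 110.4 TPM, *Cpt1a* 24.4 TPM and *Ucp1* 1134 TPM, and in the MA/MyJ female they were 80.3, 17.8 and 1250 TPM.

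The high ratio rarely held in both sexes of a strain. BXD12/TyJ was the only strain of the 59 with a ratio above 1 in both libraries, 1.78 in the female and 1.11 in the male. In MA/MyJ the male library had 12.98 TPM of *Cpt1b* and 58.2 TPM of *Cpt1a*, and 24.4 TPM of *Ucp1*. The SWR/J male had a ratio of 3.63 (*Ucp1* 473.1 TPM), and in its female *Cpt1b* was 19.3 TPM and *Cpt1a* 47.9 TPM (*Ucp1* 76.6 TPM). At the lower end of the 14, BXD15/TyJ male had a ratio of 1.08 with 20.97 TPM of *Ucp1*, so a ratio above 1 also occurred with far less *Ucp1*.

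Genes outside the list were ranked by how closely they followed it over all libraries, centred within each sex, among 16862 genes. The mean of the 9 genes was followed most closely by *Etfdh* (r = 0.96), whose protein passes electrons from the acyl-CoA dehydrogenases to ubiquinone. *Atp5a1*, a subunit of ATP synthase (0.94), and *Uqcrc1*, a subunit of respiratory complex III (0.94), came next, each together with a gene model of identical values in all libraries. Among the genes closest to *Cpt1b* were *Cidea* (0.90), *Cox7a1* (0.89), *Ppara* (0.86) and *Fabp3* (0.86), with *Ucp1* at 0.84. *Cpt1a* had other neighbours, and lower r: *Spred1* (0.77), *Vav3* (0.75), *Cttnbp2nl* (0.74), *Atp2c1* (0.74) and *Anpep* (0.74). For these correlations over libraries, which share their tissue and scaling, no p is given.

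Gene models overlapping the 9 genes were low. *Gm44502* shares 2744 of the 3372 exon bases of *Cpt1b* on the same strand and had a median of 0.101 TPM and at most 0.722 TPM. *Dvl2* shares 1151 of the 2686 exon bases of *Acadvl* on the opposite strand, with a median of 6.42 TPM. Whether quantification used the strand is not given in the sources used here, so a part of the reads of *Acadvl* and *Dvl2* may not be separable.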

How the data were processed

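Subcutaneous fat of 82 strains was profiled by bulk RNA-seq (poly(A) selection, KAPA mRNA HyperPrep kit), with 67 female and 74 male libraries grouped by strain, sex and strain family from the labels. The authors quantified reads with kallisto 0.46.1 against mouse Ensembl transcripts (GRCm38/mm10) and summed them to genes with tximport. They deposited 2 tables of 36558 genes, one of estimated counts, which carry the depth, and one of TPM, which is per transcript length and sums to the same total in each library. Of the gene IDs 35935 matched a symbol, and 0 columns of per-sample values belonged to no sample.

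The deposited estimated counts were rounded and tested with edgeR 4.0.16 (quasi-likelihood test, TMM, filterByExpr by sex, Benjamini-Hochberg over all genes tested, threshold 0.05) in R 4.3.3; DESeq2 1.42.0 and limma 3.58.1 served as alternatives. Sex was tested with strain as a block in 59 strains, because both libraries of a pair come from the same inbred strain per the labels (female-male r of 0.17 to 0.53 for the 9 genes). Strain was tested in the same fit, families within each sex, and sex by family in BXD and classical strains. Standard errors are the log2 fold change over the root of F. Log2 CPM used a prior count of 2. A count of 3 corresponds to 0.0992 CPM at the median depth and 0.479 CPM in the shallowest library, which covers counting error only. The closest pair of libraries had r = 0.987 and no library was counted as a duplicate.

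Genes named are all 9 members, and of the pathway list the 4 largest changes past the threshold in each direction, every regulator, *Acads* and *Slc25a20*, plus the 5 genes most alike to the mean of the members, to *Cpt1a* and to *Cpt1b*, and markers given beside a member. One gene that this rule names is not reported here. The members and all gene lists were chosen with earlier results of these data known. The fits were tested on simulated data with known changes. Sequences come from RefSeq (GRCm38.p6) and gene positions from GENCODE M21; no protein sequences are shown. Correlation p-values come from 100000 permutations. Alternatives changed the tool, the scaling, the filter, the unit (log2(TPM + 1) and log2(TPM + 0.1)), the block and the samples; 2 (libraries standing apart in markers left out, and an adipocyte marker term) were chosen after seeing the data.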

Additional observations from a re-analysis of the deposited data

Results flagged for a closer look

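Within the 9 AXB/BXA female libraries, that of AXB12/PgnJ lay far below the others in 2 of the 9 genes. Its gap to the next library took 0.608 of the whole range of log2 CPM for *Acadm* (113.4 TPM, next lowest 301.2 TPM in AXB19a/PgnJ) and 0.607 for *Cpt2* (16.3 TPM, next lowest 52.2 TPM in AXB19a/PgnJ), above the critical value of 0.493 for 9 libraries. Chance flags about 1 in 20 groups, and 9 genes were examined in this group. The summed adipocyte markers of the library were 6648.1 TPM, *Acads* was the lowest of all libraries there at 24.6 CPM, and the part of adipocyte content in these values was not tested.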

How the results depend on the processing

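Of 280 results recomputed under alternatives, 248 kept their direction and their side of the threshold or, for a count, stayed within 1.5 times, 25 fell short of it, 1 count rose past it and 6 changed sign. Leaving out the strain block (no replicate block), the count of genes lower in females was 3 in place of 6, both over the same libraries and over all libraries; *Cpt1b* then had a log2FC of 0.0701 and 0.21, *Hadha* 0.0171 and 0.0513, and *Hadhb* 0.0332 over all libraries, all with adjusted p above 0.05 by edgeR. *Hadha* was also 0.0170 with library totals. The block changed no call of *Cpt1a*, *Cpt2* or *Acadm*. With the adipocyte marker term 3 of the 9 genes and 11 of 55 pathway genes were lower in females, beside 21.3% of all genes, and with library totals 10 pathway genes were higher. Family differences in males held for 2 genes with limma-voom (*Acadl*, *Hadha*) and for 2 to 5 when each BXH or CXB strain was left out in turn, with 2 (*Cpt1b*, *Hadha*) without CXB11/HiAJ; BXD and classical males differed in 0 genes with limma-voom. Without the sub-lines AXB19a/PgnJ and AXB19b/PgnJ and the *Cep290* mutant line, 4 genes differed between families in males and 0 in females. The female-male r of *Cpt1a* was 0.22 on log2(TPM + 1), and that of *Acadm* 0.25 without 2 strains. The causes were not tested.

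Counts of calls over all genes moved more than those of the 9 genes. Family calls in females, 679 in the reported fit, were 2283 with no filter on low counts, 401 when every library needed at least 10 counts, 436 with library totals, 293 with limma-voom, 81 on log2(TPM + 0.1), fewer than 293 on log2(TPM + 1), and 301 without the libraries apart in markers. In males 1374 became 2707 with no filter, 2553 and 2967 on TPM, 762 without BXH9/TyJ and 846 without CXB11/HiAJ. BXD against classical females, 1255 calls, gave 3356 with no filter, 759 with the strict filter, 633 with limma-voom, 366 and 267 on TPM, 719 without the libraries whose Y-linked counts went against the label and 767 without those apart in markers. BXD against classical males, 907 calls, gave 2132 with no filter and 376 and 375 on TPM. On TPM 2878 and 2855 genes were lower in females, against 4988.

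With 1 library per strain and sex, differences within a strain carry no replicate error, and the 2 BXH female libraries and 3 CXB libraries per sex limit the family tests. Depth limits none of the 9 genes: the lowest level, *Cpt1b* at 4.61 CPM, is above the level of 3 counts in every library.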
